A study of Drosophila melanogaster with 4 samples.

Results

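The airways of fruit fly (Drosophila melanogaster) larvae are described here for 4 signalling genes, the secreted ligand gbb and the membrane receptors 5-HT7, mthl10 and mthl3. They were chosen by name, as the rows of the authors' deposited table whose gene ID is the locus of one of them, and all 4 were among its 244 genes. The authors selected that table for a change on these same arrays, so the presence of the 4 genes in it is no finding and their values are given as a description without a test.

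The arrays set tracheae from the progeny of the driver strain NP2610 crossed with a UAS-PGRP-LE strain against tracheae of NP2610 alone. The GAL4 driver turns on the UAS transgene, which encodes PGRP-LE, a receptor for bacterial peptidoglycan that starts the immune deficiency (IMD) pathway, and the design text calls the driver specific for the tracheal system. Both groups carry NP2610, were third-instar larvae aged about 10 days raised at 22 °C, and gave RNA from 20 pairs of tracheae each, while only the first carries the transgene and the second parent's genetic background. Transgene and background cannot be told apart in this comparison. The 4 two-colour arrays are titled as 2 biological replicates with 1 technical replicate each.

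The 4 genes act at the cell surface. Gbb, named glass bottom boat, is a ligand of the bone morphogenetic protein (BMP) family. Such ligands bind paired receptor kinases that phosphorylate the factor Mad, and BMP signalling guides tracheal branches in the embryo and growth at the larval nerve-muscle synapse. 5-HT7 is a serotonin receptor that raises cyclic AMP through a G protein. Mthl10 and mthl3 belong to the methuselah family of G protein-coupled receptors, named after a gene whose loss lengthens adult life. Mthl10 is a receptor for the cytokine growth-blocking peptide, which links stress and immunity to metabolism in the fly. No ligand of mthl3 is named here.

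In the PGRP-LE cross relative to the driver strain, 2 of the genes had a higher ratio and 2 a lower one, each by less than a doubling or a halving. The receptors 5-HT7 and mthl10 were on the higher side, where 76.6% of the genes of the authors' deposited table lie, and gbb and mthl3 were on the lower side, with 23.4% of the table. "Higher" and "lower" rest on the likely reading of the ratio, since the table does not name its numerator. Its hybridisation group is the PGRP-LE cross, and channel 1 held that cross on every array. PGRP-LE had no row in the table, so the overexpressed gene could not be used to check the direction. Immune genes that do have rows in it were not used for such a check here.

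For gbb, the ligand, the authors' deposited table gives a mean log2 ratio of -0.77 with a standard deviation (SD) of 0.46 over 8 valid spots, a level 0.586 times that of the driver strain. One SD on each side of the mean ran from -1.23 to -0.31, and 2 SDs ran from -1.69 to 0.15. The table pools spots of all arrays, so neither the value on each array nor the spread between the 2 biological replicates is given for this or any other gene. Dividing the SD by the size of the mean gives the coefficient of variation, which for gbb the authors' deposited table puts at 0.60, close to the median of 0.585 over all 244 genes.

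The serotonin receptor 5-HT7 had the largest mean of the 4 genes and also the widest spread. The authors' deposited table gives 0.90 with an SD of 0.79 over 6 valid spots, a 1.87-fold difference. One SD on each side ran from 0.11 to 1.69. In the authors' deposited table, 19 of the 244 genes exceeded its coefficient of variation of 0.88. Among the 73 genes that also had 6 spots, 10 had a larger SD and 60 a smaller one, so the spread of 5-HT7 was wide for its number of spots as well.

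The methuselah-like receptors lay on opposite sides. For mthl10, the cytokine receptor, the authors' deposited table gives 0.75 with an SD of 0.49 over 6 spots, a 1.68-fold difference. For mthl3 the authors' deposited table gives -0.87 with an SD of 0.58 over 6 spots, a level 0.547 times that of the driver strain. The ranges of one SD did not overlap, running from 0.26 to 1.24 for mthl10 and from -1.45 to -0.29 for mthl3. The difference between them, mthl10 minus mthl3, was 1.62 on the log2 scale, against 1.07 for the sum of the 2 SDs in the authors' deposited table. No gene of the table has a mean between -0.65 and 0.59. None has an SD above 0.97 times the size of its mean, so no range of 1 SD reaches 0. Any pair of its genes on opposite sides thus lies apart with ranges that cannot overlap, and the gap only describes this pair. A range of 2 SDs on each side of the mean included 0 for all 4 genes. It ran from -0.23 to 1.73 for mthl10, from -2.03 to 0.29 for mthl3 and from -0.68 to 2.48 for 5-HT7. Such a range includes 0 for most of the table, since only 32.8% of its genes have a coefficient of variation under 0.5.

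**Figure D1:**
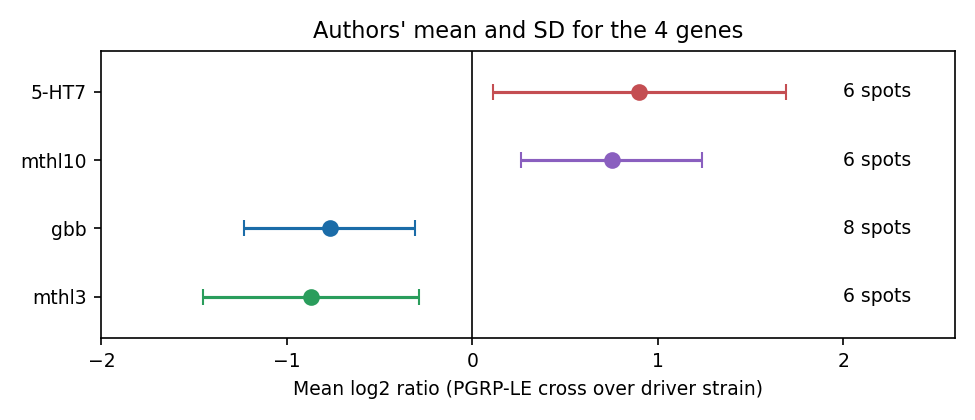
Mean log2 ratio (horizontal axis, PGRP-LE cross over driver strain) of 5-HT7, mthl10, gbb and mthl3 in the authors' deposited table, with bars of 1 authors' SD and the number of valid spots at the right. 5-HT7 at 0.90 and mthl10 at 0.75 lie right of 0, gbb at -0.77 and mthl3 at -0.87 lie left of it, and the bar of 5-HT7 comes closest to 0.

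Within each side the pairs were not separable. 5-HT7 and mthl10 differed by 0.15 on the log2 scale, less than the SD of either gene in the authors' deposited table. Gbb and mthl3 differed by 0.10, also less than either SD. In size, without the sign, the 4 means spanned 0.75 to 0.90. No order of the 4 genes by size of response is read from values so close to each other relative to their spread. The SDs describe pooled spots and are not errors of a mean, and no difference between genes was tested.

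The differences were moderate for the table they come from. None of the 4 genes reached a log2 size of 1 in the authors' deposited table, as 38.9% of its genes did. 5-HT7 ranked 99th and mthl10 139th by size among the 187 higher genes. Mthl3 ranked 31st and gbb 44th among the 57 lower genes. The median size was 0.82 over the 4 genes and 0.915 over all 244 genes of the authors' deposited table.

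The spread of the 4 genes differed. Gbb at 0.46 and mthl10 at 0.49 had an SD below the median of 0.52 over all genes of the authors' deposited table, and mthl3 at 0.58 and 5-HT7 at 0.79 had one above it. None had a coefficient of variation under 0.5, against 32.8% of all genes listed in the authors' deposited table. The median was 0.665 over the 4 genes. Genes with 6 valid spots, as 5-HT7, mthl10 and mthl3 have, had in the authors' deposited table a median coefficient of variation of 0.66, against 0.545 for the 134 genes with 8 spots. Mthl10 at 0.66 and mthl3 at 0.67 were thus typical of genes with 6 spots, and 5-HT7 at 0.88 lay above them. No gene of the table had fewer than 6 spots or a coefficient of variation above 0.97.

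**Figure D2:**
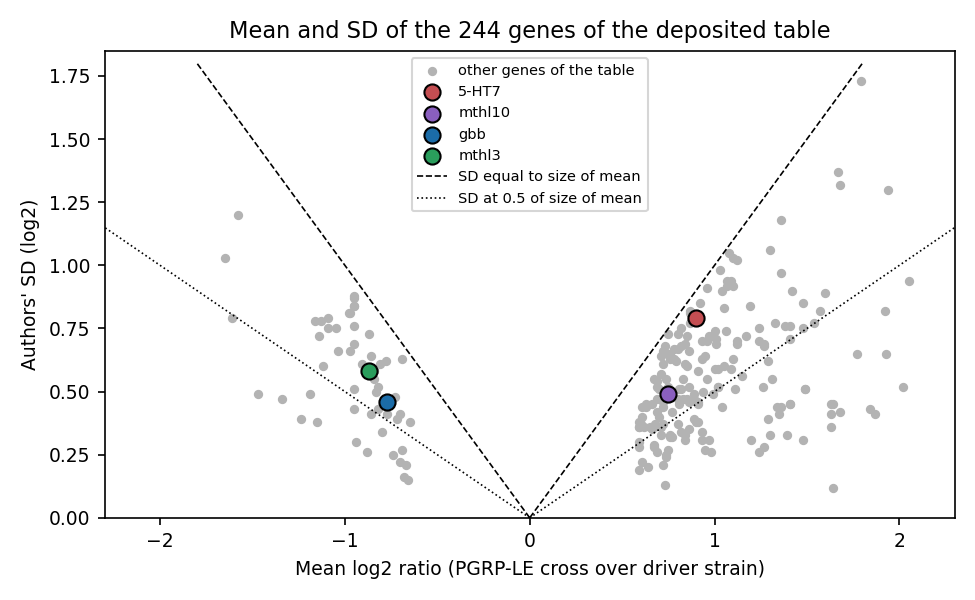
Mean log2 ratio (horizontal axis) against the authors' SD (vertical axis, log2) for the 244 genes of the authors' deposited table, with the 4 genes in colour. Dashed lines mark an SD equal to the size of the mean and dotted lines an SD of 0.5 times that size; gbb, mthl3, mthl10 and 5-HT7 all lie between the lines, at coefficients of 0.60, 0.67, 0.66 and 0.88.

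Partners of the 4 genes in their pathways were for the most part outside the table. The authors' deposited table held 5 of the 95 genes in 10 lists of signalling genes, with 3 higher and 2 lower, and these include the 4 genes themselves. The 4 genes were chosen because they have rows in it. The number of genes measured is not known here, so no share over all genes can be set beside this count or those below. The counts are thus no result about the partners. The other 90 have no value here. A gene outside a table of selected genes may have been unchanged, too variable or not measured, so its absence gives no level.

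Of 28 genes of BMP and activin signalling, gbb was the only one in the authors' deposited table. It was 1 of 7 ligands. None of the 5 receptors, among them tkv, sax, wit and put, which receive BMP ligands, was in the table, and nor was any of 16 transducers, targets and extracellular regulators, such as Mad, Med and Dad. No listed gene downstream of gbb thus has a value here.

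Of 5 serotonin receptors, 5-HT7 was the only one in the authors' deposited table, and none of 15 receptors for dopamine, octopamine, tyramine or acetylcholine was there. In the list of 5 genes for synthesis and transport of serotonin the table held Ddc, which encodes dopa decarboxylase. This enzyme makes serotonin and dopamine, and in the epidermis it also serves cuticle tanning. For Ddc the authors' deposited table gives 1.92 with an SD of 0.82 over 8 spots, a 3.78-fold difference in the direction of 5-HT7. Both are on the higher side, which holds 76.6% of the table, so the shared direction tells nothing particular about serotonin. The ranges of one SD of the 2 genes overlapped, reaching from 1.10 to 2.74 for Ddc and from 0.11 to 1.69 for 5-HT7.

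The methuselah family had 2 of its 16 genes in the authors' deposited table, mthl10 and mthl3. In the RefSeq gene order of assembly Release 6, mthl10 lies between mthl9 and mth, the founding gene, and mthl3 lies next to mthl4. None of these 3 neighbours of the family was in the table, so each of the 2 genes was the only selected one of its cluster. Cross-hybridisation between family members cannot be assessed, because probe sequences were not used here. Gbp1, Gbp2 and Gbp3, which encode growth-blocking peptides, and sun, which encodes a peptide ligand of Mth, were not in the table. The same was true of 22 genes of G protein signalling, including Galphaq, Galphas, norpA and rut.

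The annotation column of the authors' deposited table ties mthl3 and mthl10 together, and 5-HT7 to them only by a general term. 152 of the 244 genes carry a Gene Ontology term there. Mthl3 and mthl10 each carry 5 terms and share all 5, including adult life span and response to stress, and no other gene of the table has the latter. 5-HT7 shares 1 identical term with each of them, that of an integral membrane protein, while its receptor terms name serotonin and theirs do not. Gbb carries 13 terms and shares none with the 3 receptors, and it is the only gene of the table with growth factor activity or with a term for transforming growth factor beta.

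Terms for G protein-coupled receptor activity, whether general, of unknown ligand or for serotonin, were grouped here, and 5 genes of the authors' deposited table carry one of them. Of these 5, mthl3 was the only one on the lower side. The 4 on the higher side are close to what the table's share of 76.6% gives. The 2 receptor-annotated genes besides 5-HT7, mthl10 and mthl3, named here after their values were seen, were CG2901 and CG12290. The authors' deposited table gives 1.41 for CG2901 with an SD of 0.45 over 6 spots, the largest mean and smallest SD of these 5 genes. It gives 1.09 for CG12290, annotated as a receptor of unknown ligand, with an SD of 0.59 over 6 spots, in the same authors' deposited table. CG30440, annotated as a guanyl-nucleotide exchange factor, and CG32085 carry the pathway term without receptor activity. They stood at 0.72 (SD 0.46, 7 spots) and -0.82 (SD 0.52, 8 spots) in the authors' deposited table.

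**Figure D3:**
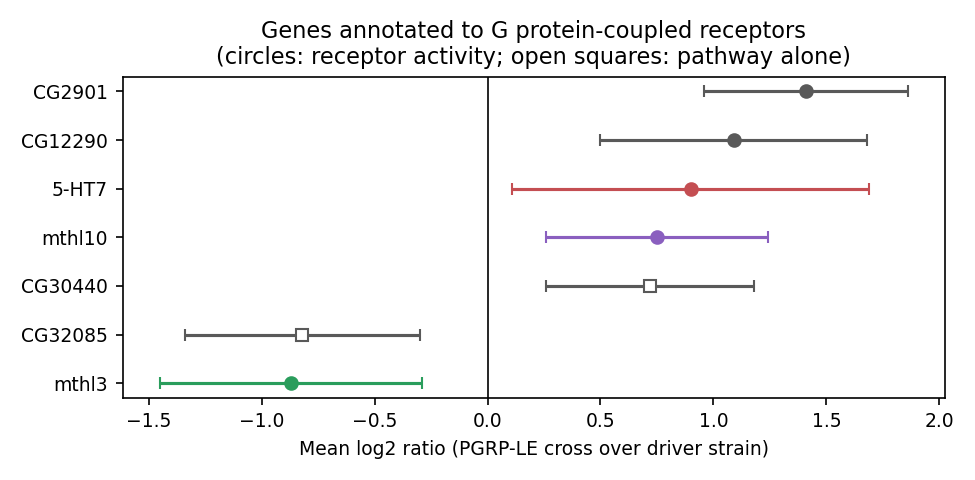
Mean log2 ratio (horizontal axis, PGRP-LE cross over driver strain) with bars of 1 authors' SD for the genes annotated to G protein-coupled receptors in the authors' deposited table. Circles mark receptor activity and open squares the pathway term alone; CG2901 at 1.41, CG12290 at 1.09, 5-HT7 at 0.90 and mthl10 at 0.75 lie right of 0, and mthl3 at -0.87 lies left of it.

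The genes most like each of the 4 were taken as the 3 nearest by Euclidean distance over mean log2 ratio and SD in the authors' deposited table. This likeness is one of summary values over all arrays and not of a pattern across samples. For gbb the nearest were CG30349, CG31676 and CG33229, at distances of 0.010 to 0.050. For 5-HT7 they were CG10383, CG17029, annotated as an inositol monophosphatase, and CG16815, at 0.036 to 0.042. For mthl3 they were CG32099, named ebony activating protein in the table, the proteasome subunit gene Rpt6 and Ance-3, at 0.030 to 0.042. For mthl10 they were atilla, which encodes a surface protein of blood cells, the transcription factor subunit gene Tfb4 and CG30440, at 0.014 to 0.042. The authors' deposited table gives atilla 0.74 with an SD of 0.48 over 8 spots, which matched mthl10 to within 0.01 in both values.

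Cell types cannot be read from a table of selected genes. None of 12 airway markers that matched a reference gene was among the 244 genes, so the labelled tissue could not be checked against them. Of 42 such markers of blood cells, fat body, muscle, neurons, gut and salivary gland, 4 were in the authors' deposited table, all on the lower side, which holds 23.4% of the table. They were the storage protein gene Lsp2 of the fat body at -0.86, the muscle gene Mf at -1.09, the neuronal gene fne at -0.95 and the digestive protease gene Jon99Fi at -1.58. None of the 8 listed blood cell markers was in the table. Outside that list, the authors' deposited table gives 0.74 for atilla, described above, and 0.80 for NimB2. Both are on the higher side, which holds 76.6% of the table, so their side tells nothing particular about blood cells. The part of other cell types in the ratios of the 4 genes was not tested. In RNA of whole tracheae, fewer cells of a type and less RNA per cell cannot be told apart.

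A second deposited table holds a signed value per spot for each array, with 32448 spots identified by a running number alone. Its spots could not be tied to genes here, so it gives no value for gbb, 5-HT7, mthl3 or mthl10. How it relates to the processing behind the gene list is not stated, and nor are its log base, centring or direction. The label fields give channel 1 Cy5 on 2 arrays and Cy3 on the other 2, so the sign of a correlation between arrays may follow the dye. Array medians ran from -0.41 to 0.98, and Pearson correlations between arrays across all spots ran from -0.086 to 0.106. The correlation was -0.086 between the 2 arrays of replicate 1 and 0.0082 between those of replicate 2. It was -0.083 between the technical array of replicate 1 and the biological array of replicate 2, which have the same label fields. Dye labels thus do not account for that low value, and its cause was not tested. With the 2 arrays of a replicate averaged (n = 2), limma called 0% of the spots at an adjusted p of 0.05. An unadjusted limma p under 0.05 was found for 1256 spots (3.87%). A fit with n = 2 has little power. Within each replicate the channel 1 label differs between the 2 arrays, so averaging would cancel a difference if the sign follows the dye. Fits with the signs turned by the label fields, or with a dye term, also called 0 spots. With so few arrays, the absence of calls does not show that no gene changed. The 4 genes are thus known only by the authors' pooled values, which could not be recomputed from the spots.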

How the data were processed

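RNA of larval tracheae was compared on 4 two-colour arrays. Per the file headers, the authors deposited for each gene a mean log2 ratio, its SD on the log2 scale, the count of valid spots and a coefficient of variation, which is a ratio of SD to mean. The series' design text says that the genes were selected from SAM and GeneTraffic output. The sources used here do not give the background correction, normalization, spot filters or thresholds. The authors deposited also a score per spot and array, by its sign and range a log ratio, with base, numerator, centring and probe names not stated. The dye labels of the first array contradict each other.

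The members and lists were chosen with earlier results of these data known. Named genes were the 4 members, list genes found in the table, PGRP-LE, 4 antimicrobial peptide genes and the 3 nearest genes per member. The peptide genes were planned as a check of direction on each array, which was not possible because spots have no names. The authors' gene table, which has gene IDs, was not used for that check here. The planned limma test per member needed named spots and could not be run. Lists were matched by gene ID to RefSeq, of which 227 matched by locus tag, 13 by an older identifier and 4 not at all. The limma fit over spots used an intercept, eBayes and Benjamini-Hochberg adjustment. Its code was tested on simulated shifts much larger than the members' mean log2 ratios and of the same sign on all arrays. That test does not show that the fit finds shifts of the members' size. No SE or p-value was derived from the authors' SD, because spots of 1 array are not independent. The number of arrays limits the precision. Python 3.11.15, pandas 2.3.3, numpy 2.4.6, R 4.3.3 and limma 3.58.1 were used. Alternatives covered direction, filters, scaling, dye and left-out arrays.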

Additional observations from a re-analysis of the deposited data

How the results depend on the processing

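Reading the ratio the other way turns each member, to 0.77 for gbb, -0.90 for 5-HT7, 0.87 for mthl3 and -0.75 for mthl10. With at least 8 valid spots gbb alone of the 4 is left, ranked 28th among 34 lower genes, and with a coefficient of variation under 0.5 none is. Matching the lists on the names printed in the table instead of gene IDs found 0 of the 5 list genes. The table prints full names for them while the lists hold symbols, so this outcome was fixed by the format and says nothing about the counts. limma called 0 spots as deposited and under each of 13 alternatives: median centring, quantile scaling, separate arrays, the replicate number as a block (consensus correlation -0.307), complete spots, turned signs with the first array kept or turned, a dye term, adjacent spots averaged (chosen after seeing the data) and each of 4 arrays left out. No spot lacked a value on any array, so the setting of complete spots repeated the main fit. Spots at an unadjusted p under 0.05 numbered 280 to 1884 over these settings. So few arrays give all these fits little power, and the absence of calls does not show that no gene changed. Fits with 1 replicate left out have no residual degrees of freedom and were not run, nor were probes averaged by gene or members' means over arrays, for want of spot names. No paired analysis was possible because the data form 1 comparison.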

Other observations

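CG numbers, by which fly gene annotations are counted, are compared here as values alone, a choice made after the data were seen. In the authors' deposited table, 5-HT7 lies within 20 CG numbers of ND-30, a subunit gene of mitochondrial complex I, and of CG12093, both on another chromosome arm. The authors' deposited table puts them at 0.61 and 0.59, on the higher side like 5-HT7. That side holds 76.6% of the table, so a shared side tells nothing particular. Mthl3 lies 7 numbers from Grx3, a glutaredoxin gene on another arm. Grx3 stood at 0.76 in the authors' deposited table, on the same higher side and so opposite to mthl3. The nearest numbers of selected genes to gbb and mthl10 were 44 and 32 away.

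In the spot table, adjacent spots taken in pairs from the first correlated at 0.307 to 0.555 within an array, and the neighbours across those pairs at 0.181 to 0.302.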
